A study of Mus musculus with 22 samples.

Results

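Tbx1, Tbx2, Tbx3, Tbx4 and Tbx5 encode T-box transcription factors that are active in the developing lung. The genes were chosen by name: 3 of the 5 (Tbx1, Tbx2 and Tbx3) are in the files for E18.5, an embryonic stage shortly before birth, among 13750 genes, and all 5 are in those for 6 months, among 15958 genes. Levels of Tbx4 and Tbx5 at E18.5 were not analysed here. RNA came from mouse lung epithelium, in 22 libraries. WT libraries are labelled NANCI-+/+. NANCI libraries carried the NANCI-CreERT2:RFP allele in both copies of the NANCI locus, Nkx libraries 1 copy of Nkx2.1-GFP, and Double libraries 1 copy of each allele. Each of these 4 genotypes had 3 libraries at E18.5. The 6-month set held 3 libraries of WT, 3 of Nkx and 4 of Double. E18.5 cells were pulled down with magnetic beads as EpCAM+, with no depletion of other cells named, and 6-month cells were sorted as EpCAM+, CD45- and CD31-, which selects against leukocytes and endothelial cells. Age and enrichment method changed together, so no difference was tested between the ages. The labels do not say that replicates are separate animals, so the p-values measure the spread between libraries, and that spread may be technical. CreERT2 is a tamoxifen-activated Cre recombinase, and RFP and GFP are fluorescent reporters; the sources used here do not give which part of each gene the alleles replace.

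T-box factors bind DNA through a shared domain, the T-box. In embryonic mouse lung, Tbx2, Tbx3, Tbx4 and Tbx5 are known chiefly from the mesenchyme and Tbx1 from the epithelium. Tbx4 and Tbx5 act upstream of the growth factor gene Fgf10 and of branching, while Tbx2 and Tbx3 act mainly as repressors, among others of cell cycle inhibitor genes. Tbx1 is best known for its role in the pharynx and outflow tract, where it acts with Isl1 and Eya1.

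Values are log2 expression, quantile-normalized within each age, so that a value is comparable between libraries of an age. Read totals are unknown; as a stand-in for depth, 209 to 284 distinct values lay at or below the median in an E18.5 library and 128 to 382 in a 6-month library. Epcam, the gene of the selected surface protein, lay between 12.78 and 14.00 at E18.5 and between 12.95 and 13.81 at 6 months. Markers of other cells were measured too: the endothelial gene Pecam1, which encodes CD31, lay between 9.27 and 13.52 at 6 months in spite of the CD31- sort, and the collagen gene Col1a1 between 6.90 and 11.17. Nkx2-1 lay between 14.48 and 14.95 at E18.5 and between 13.75 and 14.55 at 6 months, and passed in no comparison. Since the part of Nkx2-1 carried by the GFP allele is not stated, its level does not check the labels. In these bulk samples, fewer cells of a type and less RNA per cell cannot be told apart.

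The 5 genes lie at 3 places in the mouse genome (GRCm38). Tbx2 (ENSMUSG00000000093; chromosome 11, 85832551 to 85841948, plus strand) and Tbx4 (ENSMUSG00000000094; chromosome 11, 85886422 to 85916097, plus strand) are 44.5 kb apart. Tbx3 (ENSMUSG00000018604; chromosome 5, 119670669 to 119684724, plus strand) and Tbx5 (ENSMUSG00000018263; chromosome 5, 119832668 to 119885219, plus strand) are 148 kb apart. Tbx1 (ENSMUSG00000009097; chromosome 16, 18580979 to 18590671, minus strand) stands alone. Since reads from near-identical copies could be assigned to the wrong gene, the coding sequences were compared. The longest identical run between any pair of members was 12 to 23 bp, and aligned coding stretches were 67.1% to 72.3% identical. The longest run is shown for Tbx2 with Tbx3, which aligned over the longest stretch (2011 bp). Capitals mark the shared run and lower case the 15 bases on either side.
Tbx2, chr11:85833416-85833459, plus strand: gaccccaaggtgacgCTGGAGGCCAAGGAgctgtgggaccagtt
Tbx3, chr5:119672319-119672362, plus strand: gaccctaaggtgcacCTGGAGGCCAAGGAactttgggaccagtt
The run shared by Tbx2 and Tbx3 is 14 bp. Untranslated stretches were not compared. Tbx3os1 overlaps Tbx3 on the opposite strand. The sources used here do not state whether counting used strand, so reads of Tbx3 and Tbx3os1 cannot be told apart.

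Levels of different genes were set side by side only per length, as log2 expression less the log2 of the exon length in kb. On that scale the order in 6-month WT libraries was Tbx1 (8.82 ± 0.22), Tbx2 (8.74 ± 0.54), Tbx3 (7.58 ± 0.74), Tbx4 (6.71 ± 0.30) and Tbx5 (4.68 ± 1.01; SD, n = 3 each). Neighbours in that order overlapped except for Tbx4 and Tbx5. In 6-month Double libraries the order was Tbx2 (6.71 ± 0.54), Tbx1 (6.20 ± 0.76), Tbx3 (4.08 ± 0.56), Tbx4 (3.40 ± 0.46) and Tbx5 (1.64 ± 1.15; SD, n = 4), and there Tbx1 and Tbx3 were the neighbours that did not overlap. In E18.5 WT libraries the length-scaled level was 7.12 ± 0.24 for Tbx1, 3.59 ± 1.03 for Tbx2 and 3.16 ± 0.47 for Tbx3 (n = 3). Tbx1 stood above both, and the other two overlapped.

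**Figure D1:**
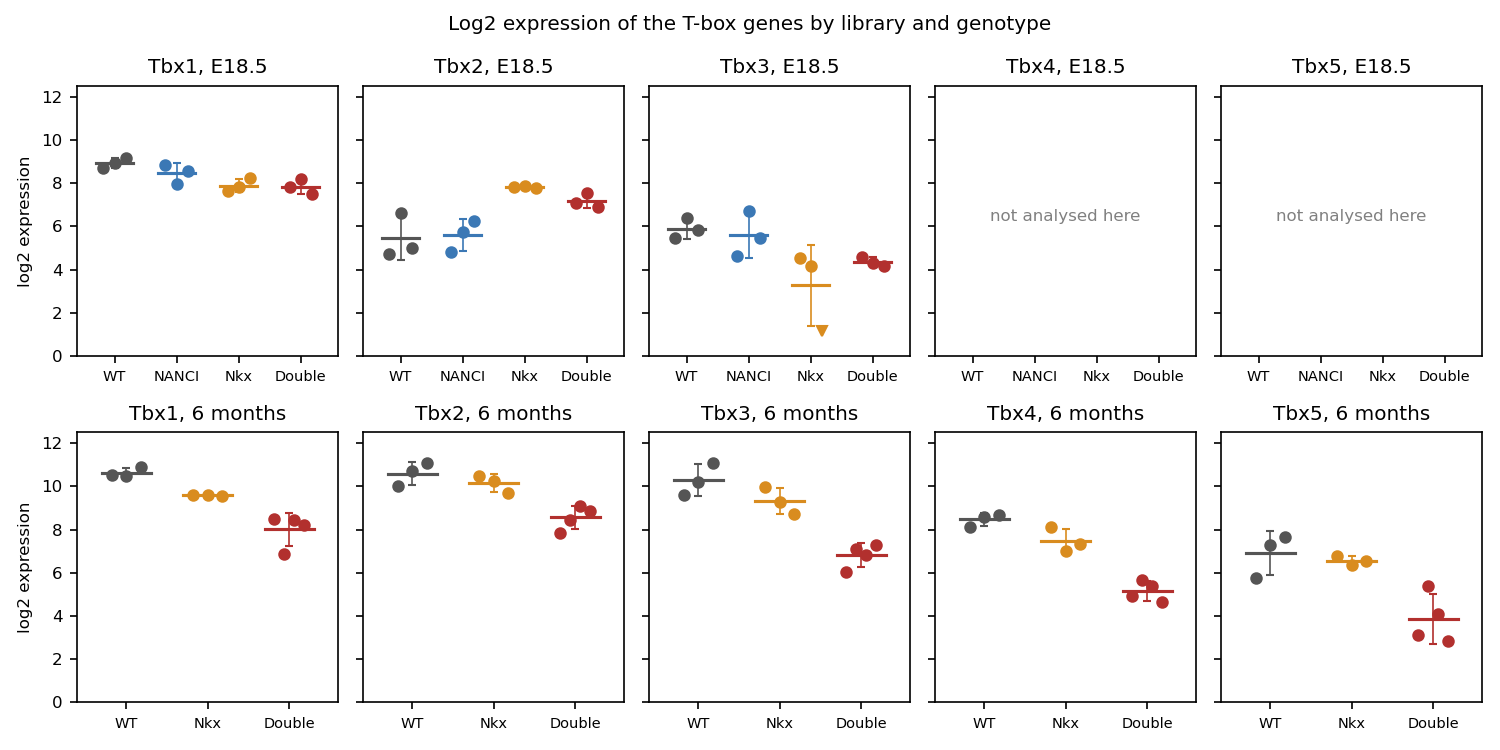
Log2 expression of each T-box gene (vertical axis) in every library (points), by genotype, at E18.5 (upper row) and 6 months (lower row); horizontal lines are group means and error bars the SD, and a triangle marks a library at its lowest value. At 6 months the 4 Double libraries lie below all WT and Nkx libraries in each of the 5 genes, and at E18.5 Tbx2 is higher in the Nkx and Double libraries than in WT.

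NANCI libraries at E18.5, with the NANCI-CreERT2:RFP allele in both copies, were set against WT first. None of the 3 measured members passed in limma (adjusted p = 0.978 to 0.983), 0 of them had an unadjusted p under 0.05, and in 0 did the groups stay apart. Of all 13750 genes 0% passed, 426 (3.1%) had an unadjusted p under 0.05, and 6.27% had groups that did not overlap. Tbx1 was at 8.68, 8.94 and 9.17 in WT and at 8.86, 7.95 and 8.58 in NANCI libraries, a log2 fold change of −0.47 ± 0.28 (± SE). The groups overlapped. Tbx2 (0.15 ± 0.48) and Tbx3 (−0.30 ± 0.79) had standard errors larger than the difference. Both changed sign under some alternatives: Tbx2 was at −0.21 without WT replicate 1, −0.09 without WT replicate 3 and −0.18 without NANCI replicate 3, and Tbx3 at 0.19 without NANCI replicate 1 and 0.62 with a sex covariate. All 3 NANCI libraries had a male pattern of sex-linked genes, against 1 of 3 WT libraries.

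With 1 Nkx2.1-GFP allele at E18.5, the members went apart: Tbx2 rose and Tbx1 fell, and Tbx3 was lower without passing. Tbx2, a repressor that keeps embryonic lung mesenchyme dividing, was at 4.74, 6.62 and 4.98 in WT and at 7.84, 7.88 and 7.76 in Nkx libraries. All 3 Nkx libraries were higher than every WT library. The log2 fold change was 2.38 ± 0.48, or 5.20-fold (limma adjusted p = 0.00977). The WT side of it lies low: WT replicates 1, 2 and 3 had Tbx2 above only 1.99%, 13.5% and 2.81% of genes. Without WT replicate 1 the call was lost (2.02, adjusted p = 0.0537). Over the 21 alternatives the adjusted p of Tbx2 ran from 0.000422 to 0.0537 and its log2 fold change from 2.02 to 2.97.

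Tbx1, the member known from lung epithelium, was at 7.61, 7.82 and 8.24 in the Nkx libraries, all below the WT libraries (8.68, 8.94 and 9.17). It fell by 1.04 ± 0.28 on the log2 scale, or 2.06-fold (limma adjusted p = 0.0383). That call was lost in 9 of 21 alternatives, with adjusted p from 0.0261 to 0.115 over all of them. The losses came in a fit of both groups alone (0.0679), with the sex covariate (0.0533) and with the replicate number as a block (0.0529). The others came without WT replicate 1 (0.0708), WT replicate 2 (0.0874), WT replicate 3 (0.0561), NANCI replicate 3 (0.0584), Nkx replicate 1 (0.115) or Nkx replicate 2 (0.112).

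Tbx3, the close relative of Tbx2, was at 5.45, 6.38 and 5.83 in WT and at 4.54, 4.15 and 1.13 in Nkx libraries. The groups did not overlap, but the Nkx libraries spread widely, since the third was at its library's lowest value. The difference of −2.62 ± 0.79 did not pass (limma adjusted p = 0.0661), and it passed with the sex covariate (adjusted p = 0.044), with array weights (0.0344) and without Nkx replicate 1 (0.0426). Without Nkx replicate 3, the library at its lowest value, the difference was −1.55. Thus 1 of 3 members rose and 1 fell, where 7.32% of all genes passed (3.67% rose and 3.65% fell). All 3 had groups that did not overlap, as had 22.2% of all genes, and an unadjusted p under 0.05, as had 21.6%. The members' median log2 fold change was −1.04, against 0.02 over all genes.

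With 1 copy of each allele at E18.5, the pattern in Double against WT had the same signs. Tbx2 was at 7.10, 7.52 and 6.90 in Double libraries, each above every WT library. The log2 fold change was 1.73 ± 0.48, or 3.31-fold (limma adjusted p = 0.0299). The rise missed the threshold in a fit of both groups alone (adjusted p = 0.0888) and with the depth covariate (0.0881). Single libraries ended the call as well: the adjusted p was 0.127 without WT replicate 1, 0.0626 without WT replicate 3, 0.0582 without Double replicate 1, 0.107 without Double replicate 2 and 0.0562 without Double replicate 3 (0.000291 to 0.127 over all 21 alternatives).

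Tbx1 was at 7.81, 8.19 and 7.49 in Double libraries, all below WT, and fell by 1.10 ± 0.28, or 2.15-fold (limma adjusted p = 0.0186). Without Double replicate 3 that call ended (−0.93, adjusted p = 0.0787; adjusted p from 0.000496 to 0.0787 over 21 alternatives). Tbx3 was at 4.58, 4.29 and 4.18, all below WT, with a difference of −1.54 ± 0.79 that did not pass (adjusted p = 0.237). Here too 1 of 3 members rose and 1 fell, where 14.6% of all genes passed (7.13% rose and 7.47% fell). All 3 had groups that did not overlap, as had 27.2% of all genes, and 2 had an unadjusted p under 0.05, as had 27.3%. The Nkx and Double comparisons share the WT libraries, so the second does not repeat the first independently.

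Adding the NANCI-CreERT2:RFP allele to the Nkx2.1-GFP allele at E18.5 (Double minus Nkx) gave no call among the 3 members. The log2 fold change was −0.06 ± 0.28 for Tbx1, −0.65 ± 0.48 for Tbx2 and 1.08 ± 0.79 for Tbx3 (limma adjusted p = 0.9998 each), with 0 unadjusted p under 0.05. For Tbx2 all Double libraries were below all Nkx libraries, a separation held by 8.6% of all genes. The sign for Tbx1 turned without Nkx replicate 3 (0.11) and without Double replicate 3 (0.11). Of all genes 0.00727% passed, a single gene, and 559 (4.07%) had an unadjusted p under 0.05. In these groups same-numbered libraries correlated in their deviations from group means (r = 0.298, 0.504 and 0.18). Those libraries also shared their pattern of sex-linked genes, and what gave the likeness was not tested. A limma fit of both groups alone, with the replicate number as a block, was chosen after the data were seen. In that fit 9 genes and none of the 3 members passed (adjusted p = 0.354 for Tbx2, 0.963 for Tbx1 and 0.696 for Tbx3).

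Cell markers moved beside the E18.5 members. Of all genes 3.67% rose and 3.65% fell in Nkx against WT, and 7.13% rose and 7.47% fell in Double. Of 9 leukocyte markers 4 fell in Nkx and 7 in Double against WT, with mean log2 expression of 6.44 to 6.82 in WT, 3.20 to 4.90 in Nkx and 3.39 to 4.52 in Double libraries. Up to 3 of the 9 leukocyte markers were at the lowest value in an Nkx library and up to 2 in a Double library. Of 10 mesenchymal markers 2 fell in Nkx, and 4 fell and 3 rose in Double, with means of 7.05 to 7.77 in WT, 6.29 to 7.31 in Nkx and 6.49 to 6.84 in Double libraries, and none of them at the lowest value. Of 7 endothelial markers 0 passed in Nkx (limma) and 2 fell in Double. Of 12 markers of cycling cells 8 rose in Nkx and 11 in Double. The means of the mesenchymal list overlapped between WT and Nkx libraries and were lower in every Double than in every WT library. For the 5 mesothelial markers, 0 passed in Nkx and 2 rose in Double. Their means were 8.54 to 9.17 in WT, 9.14 to 9.64 in Nkx and 9.60 to 10.47 in Double libraries. Among AT2 markers, 4 of 10 fell in Nkx and all 10 in Double. Their means were 16.54 to 16.81 in WT, 15.48 to 15.96 in Nkx and 14.75 to 15.71 in Double libraries. Of 7 ciliated cell markers 0 passed in Nkx and 3 fell in Double (10.73 to 11.37 in WT and 9.89 to 10.43 in Double libraries). Of 12 AT1 markers 3 fell and 0 rose in each of Nkx and Double. Not all epithelial lists fell: of 7 secretory cell markers 2 rose and 1 fell in each of Nkx and Double. Of 15 epithelial markers 0 passed in Nkx and 4 rose in Double, and of 5 neuroendocrine markers 1 rose in Nkx and 0 passed in Double. The part of these cell types in the changes of Tbx1 and Tbx2 was not tested.

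**Figure D2:**
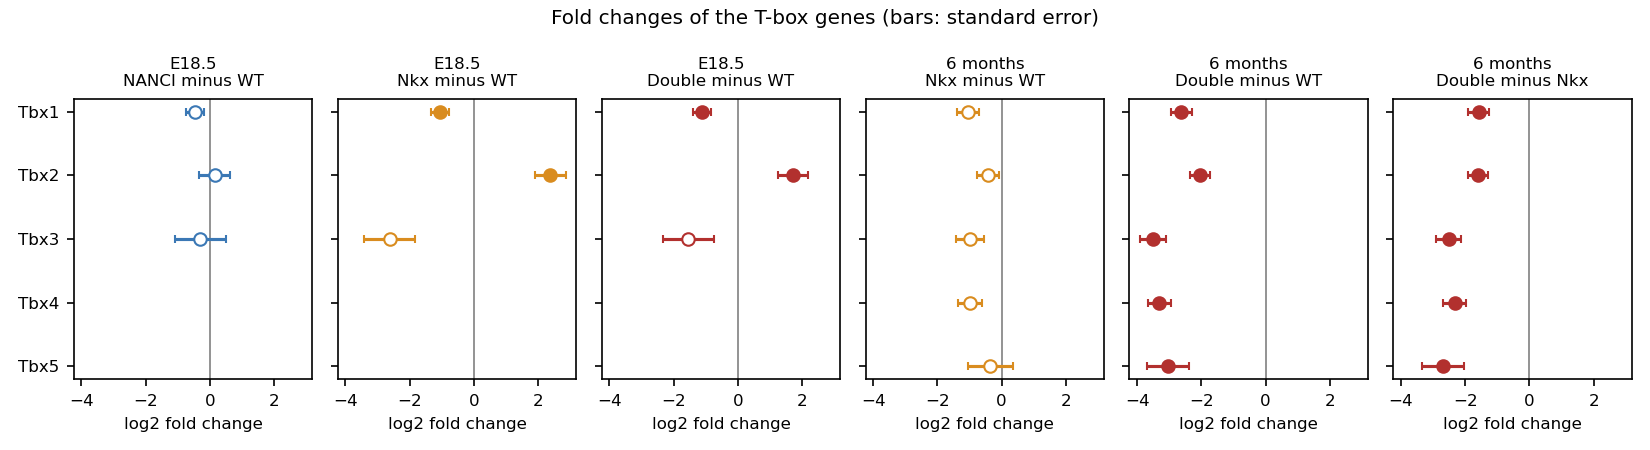
Log2 fold change of each T-box gene (horizontal axis; bars are the standard error from limma) in 6 comparisons, with filled points past the adjusted threshold of 0.05. Tbx2 lies at 2.38 and 1.73 in the E18.5 Nkx and Double comparisons against WT and at −2.03 in 6-month Double against WT.

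At 6 months, with 1 Nkx2.1-GFP allele, all 5 members lay below WT and none passed in limma, while 3 had an unadjusted p under 0.05. Of all 15958 genes 2.63% passed (1.52% rose and 1.11% fell), and 3495 (21.9%) had an unadjusted p under 0.05. Tbx1 was at 10.55, 10.47 and 10.88 in WT and at 9.62, 9.60 and 9.57 in Nkx libraries, without overlap (−1.04 ± 0.35, adjusted p = 0.129). Tbx1 passed in a fit of both groups alone (adjusted p = 0.0177), with array weights (0.0381) and without Double replicate 2 (0.0118), and its adjusted p ran from 0.0118 to 0.336 over 19 alternatives. Tbx4 did not overlap either (−0.98 ± 0.38, adjusted p = 0.169). Such separation held for 30.5% of all genes. The groups overlapped for Tbx3 (−0.98 ± 0.43, adjusted p = 0.212), Tbx2 (−0.44 ± 0.34, adjusted p = 0.482) and Tbx5 (−0.35 ± 0.70, adjusted p = 0.802). Without WT replicate 3 the sign of Tbx5 turned (0.04).

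With both alleles at 6 months, all 5 members fell against WT, where 36.3% of all genes passed (17.9% fell and 18.4% rose). All 5 had an unadjusted p under 0.05, as had 45.9% of all genes. Their log2 fold changes had a median of −3.05, against 0.06 over all genes, and no Double library overlapped with WT in any member, as in 40.1% of all genes. The 5 calls held under each of the 19 alternatives.

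Tbx4, which acts upstream of Fgf10 in lung mesenchyme, was at 8.13, 8.60 and 8.69 in WT, at 8.11, 7.03 and 7.34 in Nkx and at 4.94, 5.69, 5.39 and 4.67 in Double libraries. The 4 Double libraries stood below every other library. The log2 fold change against WT was −3.30 ± 0.35, or 9.88-fold lower (limma adjusted p = 4.5e-05). Tbx5, which overlaps with Tbx4 in function there, was at 5.76, 7.28 and 7.68 in WT, at 6.78, 6.36 and 6.53 in Nkx and at 3.11, 5.39, 4.09 and 2.85 in Double libraries. Double replicate 2 came closest to the lowest WT library. Double replicates 1 to 4 had Tbx5 above only 0.351%, 6.72%, 1.01% and 0.451% of genes, near the low end, though none at its library's lowest value. Tbx5 fell by 3.05 ± 0.65, or 8.26-fold (adjusted p = 0.00379), the least certain of the 5, with adjusted p up to 0.0231 over the alternatives.

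Tbx3 was at 9.62, 10.21 and 11.10 in WT, at 9.97, 9.30 and 8.73 in Nkx and at 6.02, 7.09, 6.83 and 7.31 in Double libraries. The gap between the lowest WT and the highest Double library was wider than the range within either group. Tbx3 fell by 3.50 ± 0.40, or 11.3-fold (limma adjusted p = 7.05e-05). Tbx2 was at 10.02, 10.70 and 11.08 in WT, at 10.51, 10.27 and 9.71 in Nkx and at 7.87, 8.44, 9.09 and 8.87 in Double libraries. WT and Nkx overlapped, and Double stood apart from both. Tbx2 fell by 2.03 ± 0.32, or 4.10-fold (adjusted p = 0.00055).

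Tbx1 was at 8.50, 6.89, 8.46 and 8.21 in Double libraries. It fell by 2.62 ± 0.33 against WT, or 6.14-fold (limma adjusted p = 0.000121). In Tbx1, as in Tbx4, no pair of the 3 genotypes overlapped: WT libraries were highest, Nkx libraries lay between, and Double libraries were lowest.

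Against Nkx libraries, the Double libraries were lower in all 5 members too, where 21.7% of all genes passed (11.5% fell and 10.2% rose) and 34.4% had an unadjusted p under 0.05. The log2 fold change was −1.58 ± 0.33 for Tbx1 (limma adjusted p = 0.00561), −1.60 ± 0.32 for Tbx2 (adjusted p = 0.0047) and −2.52 ± 0.40 for Tbx3 (adjusted p = 0.00143). It was −2.33 ± 0.35 for Tbx4 (adjusted p = 0.00108) and −2.70 ± 0.65 for Tbx5 (adjusted p = 0.0127). Groups did not overlap in any of the 5, as in 31.8% of all genes. Without Nkx replicate 1 the call for Tbx5 ended (−2.59, adjusted p = 0.0532; 0.00289 to 0.0532 over 19 alternatives). The 2 comparisons with Double share its libraries.

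The 6-month falls stood beside lower markers of several non-epithelial and of some epithelial cell types. Leukocyte markers were not among them. Of 13 in Double against WT, 10 lay above 0, 1 rose past the threshold and 1 fell (median log2 fold change 0.97). Leukocyte means were 6.98 to 7.10 in WT, 6.01 to 8.01 in Nkx and 6.51 to 9.35 in Double libraries. All 11 endothelial markers fell in Double against WT, with a median log2 fold change of −3.22, and their mean log2 expression was 11.18 to 12.36 in WT, 10.53 to 11.59 in Nkx and 8.17 to 9.36 in Double libraries. Of 17 mesenchymal markers 14 fell and 1 rose (median −2.70), with means of 9.29 to 10.13 in WT, 8.69 to 9.48 in Nkx and 6.73 to 8.04 in Double libraries. None of these markers was at a library's lowest value: Cdh5, the cadherin of endothelial cells, was at 9.70 ± 0.52 and Col1a1 at 7.77 ± 0.91 in Double libraries (SD, n = 4). In Double against WT 17.9% of all genes fell and 18.4% rose, the shares to set beside each marker count here. Of 6 smooth muscle markers 2 fell, of 6 pericyte markers 3 fell, and of 8 mesothelial markers 4 fell and 2 rose. Of 15 epithelial markers 9 rose and 2 fell, and their means were 12.89 to 12.97 in WT, 13.13 to 13.22 in Nkx and 13.46 to 13.70 in Double libraries. Lists of AT2, ciliated and AT1 cell markers fell too, and none of these lists had a marker that rose. Of 10 AT2 markers 8 fell (means of 17.95 to 18.18 in WT and 15.83 to 16.85 in Double libraries). Of 7 ciliated cell markers 7 fell (11.85 to 12.46 and 10.63 to 11.18), and of 12 AT1 markers 6 fell (12.54 to 13.64 and 11.75 to 12.36). Lists of other single epithelial cell types went otherwise. Of 8 secretory cell markers 3 rose and 1 fell (median log2 fold change 1.26), and of 6 basal cell markers 2 rose and 0 fell (median 0.71). Of 7 neuroendocrine markers 1 fell and 0 rose. Of 12 markers of cycling cells 10 rose and 1 fell. The mean of the 5 T-box genes was 8.82 to 9.89 in WT and 6.09 to 6.77 in Double libraries, and the part of any of these cell types in its fall was not tested. All 4 Double libraries had a female pattern of sex-linked genes, against 1 of 3 WT libraries; with the sex covariate all 5 members still fell.

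**Figure D3:**
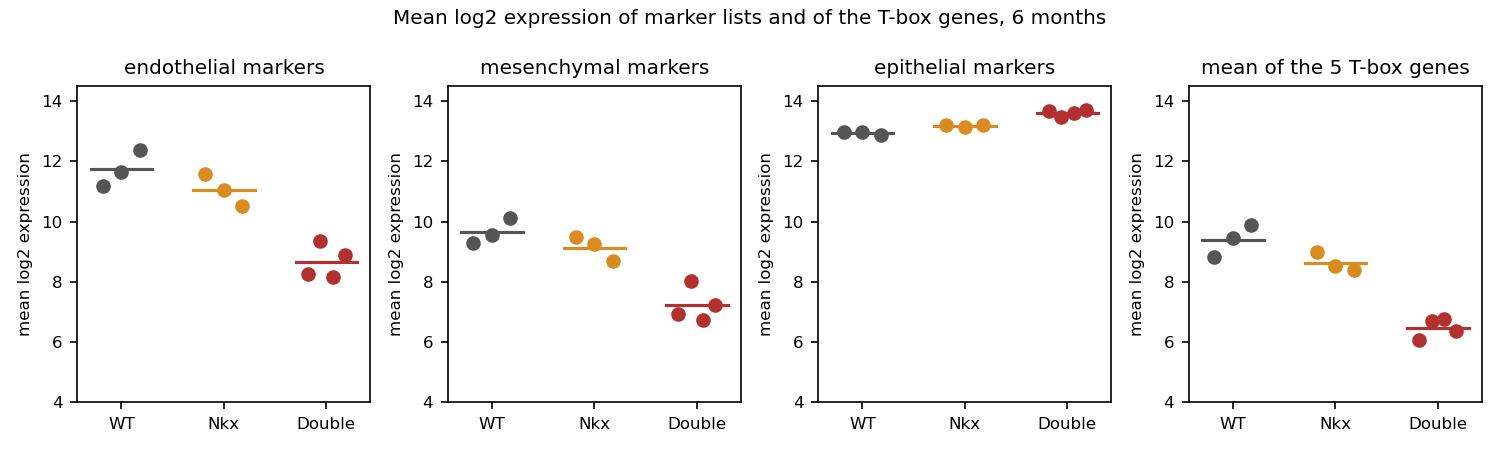
Mean log2 expression (vertical axis) of 11 endothelial, 17 mesenchymal and 15 epithelial markers and of the 5 T-box genes in each 6-month library (points; lines are group means). Endothelial markers lie at 8.17 to 9.36 in Double and at 11.18 to 12.36 in WT libraries, the T-box genes at 6.09 to 6.77 and 8.82 to 9.89, and epithelial markers are higher in Double.

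The genes whose values most resembled each member were found by Pearson correlation over the libraries of an age, among genes with a mean of at least 5. All genotypes are pooled in it, so that genes that differ between genotypes resemble each other. In the 10 libraries of 6 months, Tbx3 lay closest to Jcad (r = 0.997), Eng (0.997), Kdr (0.995), Foxf1 (0.995) and Arhgef15 (0.993). Jcad, Eng and Kdr are known from endothelium and Foxf1 from lung mesenchyme and endothelium. Over deviations from group means, r with Tbx3 was 0.984 for Jcad, 0.98 for Eng, 0.986 for Kdr, 0.963 for Foxf1 and 0.944 for Arhgef15. The same libraries had picked these genes, so such values, here and below, are a description and no independent support.

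At 6 months Tbx4 lay closest to Prickle1, Pdzd2, Nrp1, Hoxa5 and Hdc (r = 0.984 for Prickle1 to 0.981 for Hdc). Tbx2 lay closest to Plscr4, Ccm2l, Kif26a, Prelp and Sh3pxd2a (0.979 for Plscr4 to 0.976 for Sh3pxd2a). Tbx5 lay closest to Myct1, Cpn1, Angptl2, Chst1 and Dach1 (0.979 for Myct1 to 0.965 for Dach1). Tbx1 lay closest to Maats1os, Neurl1a, Kcnk5, Kcnmb4os1 and Cntfr (0.984 for Maats1os to 0.973 for Cntfr). No gene was among the 5 closest of more than 1 member, in lists cut at 5 of 13594 ranked genes. The members also resembled each other over these libraries, from r = 0.683 (Tbx1 with Tbx5) to 0.974 (Tbx2 with Tbx3). Within genotypes, over deviations from the group means, r was 0.681 (Hdc) to 0.84 (Prickle1) for Tbx4 and 0.881 (Ccm2l) to 0.906 (Kif26a) for Tbx2. It was 0.881 (Chst1) to 0.917 (Myct1) for Tbx5 and 0.825 (Kcnk5) to 0.899 (Maats1os) for Tbx1.

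In the 12 libraries of E18.5, Tbx1 lay closest to Nt5e, Casp4, Tlr2, Slc27a2 and the macrophage mannose receptor gene Mrc1 (r = 0.915 for Nt5e to 0.904 for Mrc1). Tbx2 lay closest to the splicing factor gene Sf3a1, Coq2, the mucus protein gene Fcgbp, Amt and the trefoil peptide gene Tff3 (0.948 for Sf3a1 to 0.921 for Tff3). Tbx3 lay closest to Hfe, Klhl21, Gstp3, Kcnf1 and Sema4c (0.932 for Hfe to 0.879 for Sema4c). Within genotypes, over deviations from the group means, r was 0.649 (Mrc1) to 0.845 (Slc27a2) for Tbx1. It was 0.651 (Amt) to 0.833 (Sf3a1) for Tbx2 and 0.714 (Kcnf1) to 0.846 (Hfe) for Tbx3.

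Other T-box genes were few: of 12 others matched to an ID, Tbx6 and Mga were measured at E18.5 and Mga at 6 months, and neither passed. Mga, which encodes a large factor with both a T-box and a MAX-binding domain, was at 13.32 ± 0.61 in WT and 13.34 ± 0.27 in Double libraries at E18.5, and at 11.39 ± 0.20 (n = 3) and 11.37 ± 0.18 (n = 4) at 6 months. Tbx6 differed by −0.73 ± 0.29 in E18.5 Double against WT (limma adjusted p = 0.124), and passed without the mean-variance trend (0.0456; up to 0.334 over 21 alternatives). At 6 months the fall of the 5 members was thus not seen in Mga, the other T-box gene there (log2 fold change −0.03 ± 0.14, adjusted p = 0.9).

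Of 12 neighbouring genes measured at 6 months, 1 rose and 1 fell in Double against WT, where 18.4% of all genes rose and 17.9% fell, with a median log2 fold change of 0.04. Cldn5, the endothelial claudin gene, 186 kb from Tbx1 with Sept5 between them, fell by 3.31 ± 0.32 (limma adjusted p = 2.61e-05), and Sdsl, a neighbour of Tbx5, rose by 4.06 ± 0.51 (adjusted p = 0.000123). Bcas3, which ends 6.49 kb before Tbx2, differed by −0.09 ± 0.12, and Rbm19 and Med13l, which flank Tbx3 and Tbx5, by −0.01 ± 0.20 and −0.12 ± 0.26; none of these 3 passed.

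At E18.5, 1 of 11 neighbours rose in Nkx against WT, where 3.67% of all genes rose, and 2 rose and 1 fell in Double, where 7.13% rose and 7.47% fell. 2610027K06Rik, which rose in both, is annotated as a processed transcript on the opposite strand and starts 0.328 kb from the start of Tbx2, head to head with it. It was at 1.66, 4.97 and 1.13 in WT, at 5.94, 5.87 and 4.98 in Nkx and at 5.12, 5.64 and 5.47 in Double libraries, with WT replicates 1 and 3 at their lowest value. Nkx and Double libraries were higher than every WT library. The log2 fold change of 2610027K06Rik was 3.01 ± 0.81 in Nkx (limma adjusted p = 0.0405) and 2.82 ± 0.81 in Double (adjusted p = 0.0343), as Tbx2 also rose.

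Both calls for 2610027K06Rik were weak. The Nkx call was lost in 12 of 20 alternatives (adjusted p from 0.00095 to 0.166), among them without any one of the 3 NANCI or 3 Nkx replicates, WT replicates 1 and 3, and Double replicates 1 and 3. The Double call was lost in 7 of 20 (6.69e-05 to 0.134), among them without WT replicate 1, WT replicate 3 or any one of the 3 Double replicates. Brip1os rose by 0.37 ± 0.11 (adjusted p = 0.0399) and Sept5 fell by 0.94 ± 0.27 (adjusted p = 0.0374) in E18.5 Double against WT. The Brip1os call was lost in 14 of 21 alternatives (adjusted p up to 0.193) and the Sept5 call in 7 of 21 (up to 0.147). At 6 months 2610027K06Rik was at 7.18 ± 0.48 in Double and 7.10 ± 0.33 in WT libraries (0.08 ± 0.31, adjusted p = 0.866), where Tbx2 fell.

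Promoter windows of 300 bases around a start of transcription in RefSeq (GRCm38.p6) were at hand for Tbx4 (1 window) and Tbx1 (2 windows), both of which fell at 6 months. They were searched on both strands for 4 motifs: CAAGTG, bound by NKX2-1 and other NK2 factors; GGTGTG, the core of T-box sites; GACCACCCA, bound by GLI factors; and TATAAA, the TATA box. Capitals mark the 1 match.
Tbx4, chr11:85896515-85896814, plus strand: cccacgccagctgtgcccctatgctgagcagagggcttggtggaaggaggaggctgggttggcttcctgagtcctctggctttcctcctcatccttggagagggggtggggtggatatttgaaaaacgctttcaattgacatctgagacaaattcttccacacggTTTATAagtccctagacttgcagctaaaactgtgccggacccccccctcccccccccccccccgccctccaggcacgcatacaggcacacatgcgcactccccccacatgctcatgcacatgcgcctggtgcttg
Tbx1, chr16:18590622-18590921, minus strand: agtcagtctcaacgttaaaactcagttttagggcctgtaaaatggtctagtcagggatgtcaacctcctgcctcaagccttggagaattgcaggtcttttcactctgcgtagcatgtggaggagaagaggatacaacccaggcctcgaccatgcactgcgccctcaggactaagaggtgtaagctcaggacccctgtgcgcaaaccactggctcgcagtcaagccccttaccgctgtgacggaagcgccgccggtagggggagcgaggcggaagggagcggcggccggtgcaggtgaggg
The Tbx4 window, which lies inside the gene as GENCODE draws it, held TATAAA on the opposite strand, at position −85 from the start of transcription, and none of the other 3 motifs. Neither Tbx1 window held any of the 4. Of 32851 windows, 13.6% held CAAGTG, 19% GGTGTG, 0.253% GACCACCCA and 13.6% TATAAA.

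The pathways around these factors moved in part. Of 12 FGF, BMP and WNT genes known downstream of Tbx4 and Tbx5, all measured at 6 months, 7 fell in Double against WT and 0 rose, where 17.9% of all genes fell and 18.4% rose. Fgf10, the branching signal made by mesenchyme, was at 6.39 ± 0.14 in WT (n = 3) and 3.33 ± 0.57 in Double libraries (n = 4; 1 at its lowest value), and fell by 3.06 ± 0.51 (limma adjusted p = 0.000782). Wnt2, a mesenchymal WNT ligand gene, fell by 3.26 ± 0.60 (adjusted p = 0.00144). The FGF target Etv5, which is also a gene of surfactant-making AT2 cells, fell by 2.41 ± 0.35, and the FGF feedback inhibitor Spry4 fell by 1.94 ± 0.36. Etv5 and Spry4 are known from epithelium as well. The list's median log2 fold change was −1.46, against 0.06 over all genes. Against Nkx libraries 7 of the 12 fell too (11.5% of all genes), with Fgf10 at −2.69 ± 0.51, Wnt2 at −3.02 ± 0.60, Etv5 at −1.60 ± 0.35 and Spry4 at −1.56 ± 0.36.

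In Nkx against WT, 0 of the 12 passed at 6 months in limma. The FGF receptor gene Fgfr2 (−0.38 ± 0.22) and Etv5 (−0.82 ± 0.37), the members with high levels, did not. At E18.5, 7 of the list were measured, without Fgf10 and Wnt2. None passed in Nkx (Fgfr2 at 0.19 ± 0.14 and Etv5 at −0.18 ± 0.14), and in Double Etv5 fell by 0.63 ± 0.14 (adjusted p = 0.00951) and Spry2 by 0.55 ± 0.14 (adjusted p = 0.0186). The Etv5 call ended in a fit of both groups alone (adjusted p = 0.0678). The Spry2 call ended in that fit (0.0869) and without WT replicate 1 (0.066), WT replicate 2 (0.0548), Double replicate 2 (0.0566) or Double replicate 3 (0.0832).

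Hedgehog signalling, which runs from the epithelium to the mesenchyme and acts with T-box factors there, went both ways. Shh, the epithelial ligand gene, rose in 6-month Double libraries (12.64 ± 0.24, n = 4) against WT (10.11 ± 0.17, n = 3), by 2.53 ± 0.16 (limma adjusted p = 1.53e-06). Of the 10 genes measured 1 rose and 3 fell (18.4% and 17.9% of all genes). The co-receptor gene Gas1 fell by 3.11 ± 0.64 (adjusted p = 0.00309), the transcription factor gene Gli3 fell by 2.10 ± 0.25 (adjusted p = 9.6e-05) and the receptor gene Ptch1 fell by 0.64 ± 0.17 (adjusted p = 0.0105; 0.055 without WT replicate 2). Gli3 was also the 1 gene of these lists to fall in 6-month Nkx against WT (−1.24 ± 0.27, adjusted p = 0.0383). That Gli3 call was lost in 8 of 19 alternatives, with an adjusted p of 0.0727 to 0.151 without any one of the WT or Nkx replicates. In Double against Nkx libraries, 1 of the 10 rose (Shh) and 2 fell (Gas1 and Gli3), where 10.2% of all genes rose and 11.5% fell. The Gli3 call there was lost in 9 of 19 alternatives.

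At E18.5 Shh did not pass in any comparison, while 3 of 7 hedgehog genes rose in both Nkx and Double against WT, where 3.67% and 7.13% of all genes rose. The co-receptor gene Boc rose by 1.61 ± 0.31 in Nkx (limma adjusted p = 0.00849) and by 2.23 ± 0.31 in Double (adjusted p = 0.000627). Cdon, its relative, rose by 0.75 ± 0.15 and 0.76 ± 0.15, and Ptch1 by 0.66 ± 0.13 and 0.62 ± 0.13. Fits of both groups alone ended the Nkx calls of Boc (adjusted p = 0.0572), Cdon (0.0633) and Ptch1 (0.0538), and those of Cdon and Ptch1 in Double (0.0518 and 0.0634). Without WT replicate 1 the Nkx calls of Cdon and Ptch1 ended (both 0.0527).

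Of the genes that Tbx2 and Tbx3 are known to repress, some passed. Cdkn1a, the cell cycle inhibitor p21 gene, was lower where Tbx2 was higher at E18.5. It fell by 1.14 ± 0.23 in Nkx (limma adjusted p = 0.00943; 0.05 without Nkx replicate 3) and by 0.78 ± 0.23 in Double against WT (adjusted p = 0.0368). The Double call was lost in 9 of 21 alternatives, with an adjusted p of 0.101 without WT replicate 1, 0.119 without WT replicate 2, 0.117 without Double replicate 2, 0.142 without Double replicate 3 and 0.0504 to 0.0541 without any one of the NANCI replicates. Cdkn2b, another inhibitor gene, fell by 0.76 ± 0.17 and the cadherin gene Cdh1 rose by 0.51 ± 0.14 in E18.5 Double. Of 6 genes measured, 1 fell in Nkx (3.65% of all genes), and 2 fell and 1 rose in Double (7.47% and 7.13% of all genes).

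The Cdkn2b call in E18.5 Double ended in a fit of both groups alone (adjusted p = 0.0671) and without Double replicate 2 (0.0502), and the Cdh1 call in 7 of 21 alternatives, among them without WT replicate 1 (0.0825), WT replicate 2 (0.0642), NANCI replicate 1 (0.0515), Double replicate 2 (0.115) or Double replicate 3 (0.0828). At 6 months, where Tbx2 and Tbx3 fell in Double, 2 of 7 genes of the list fell and 0 rose (17.9% and 18.4% of all genes). Gja1, the gap junction gene, fell by 1.20 ± 0.27 (limma adjusted p = 0.00513) and Cdkn2b by 1.07 ± 0.28 (adjusted p = 0.0118; 0.0553 without WT replicate 1 and 0.142 with the sex covariate). Cdkn1a differed by −0.11 ± 0.18 (adjusted p = 0.686). Against Nkx libraries 3 of the 7 fell and 0 rose, where 11.5% of all genes fell and 10.2% rose. They were Gja1, Cdkn2b and Cdkn1b, and their calls were lost in 3, 10 and 10 of 19 alternatives.

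**Figure D4:**
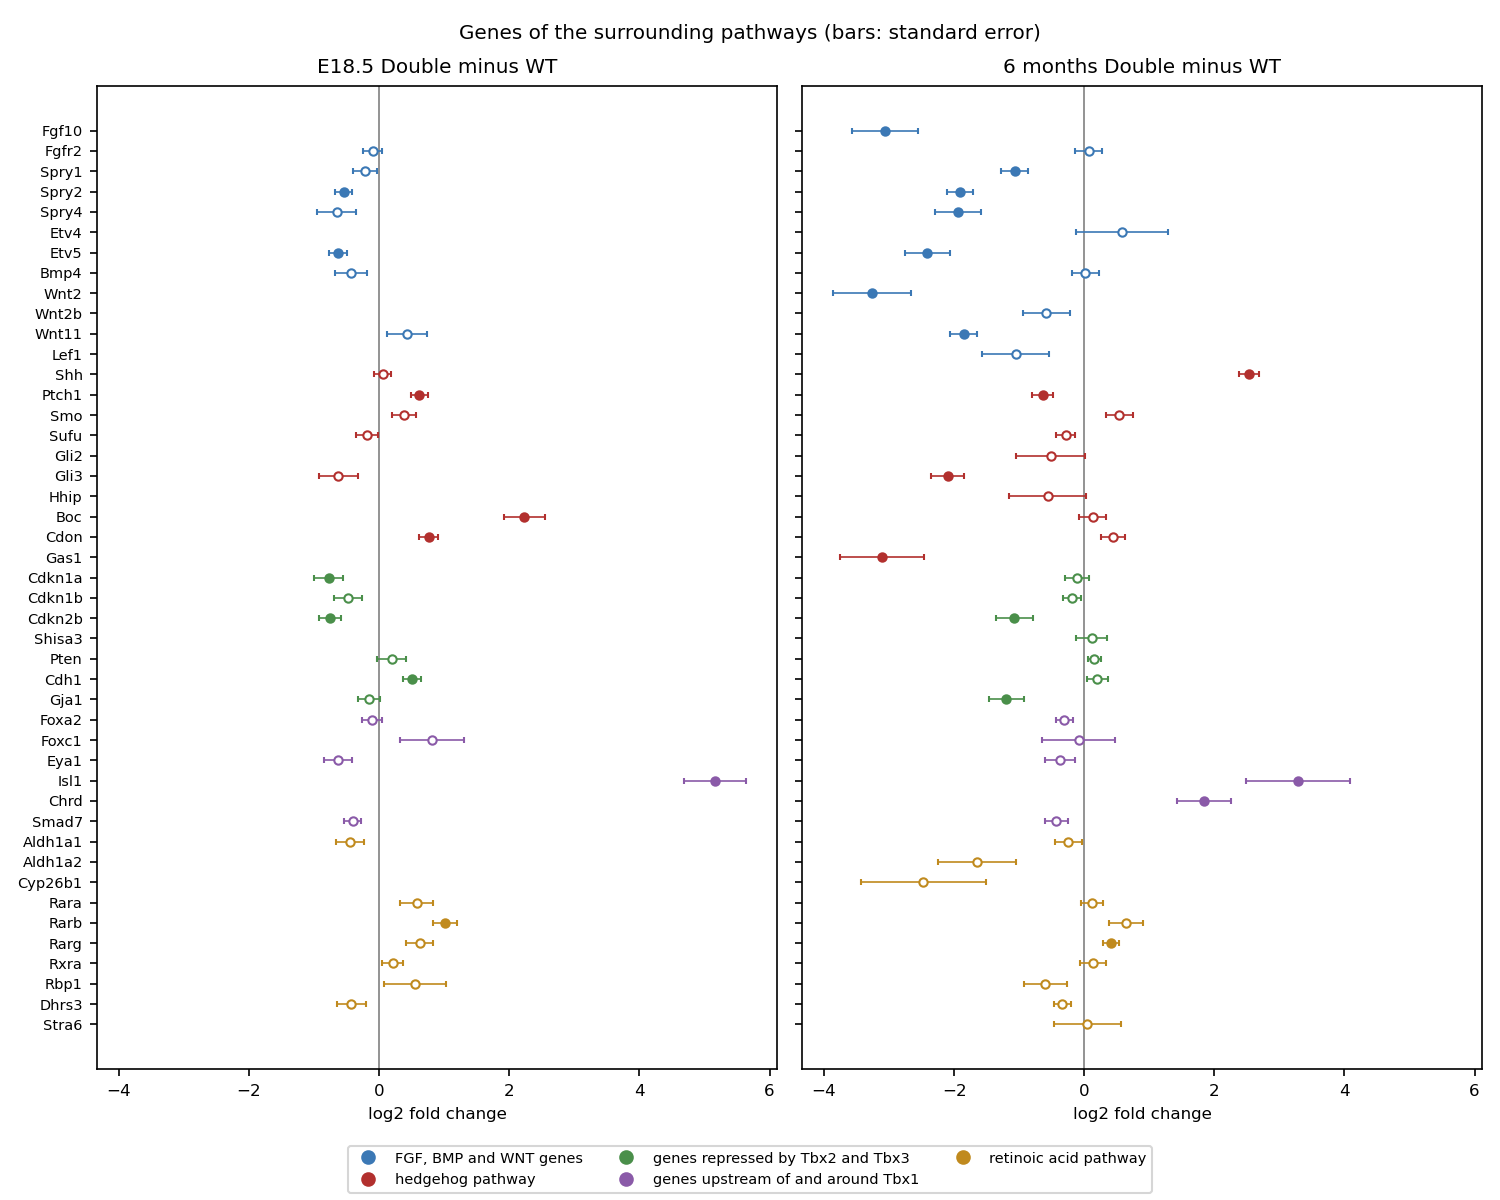
Log2 fold change (horizontal axis; bars are the standard error) of each measured gene of 5 pathway lists in Double against WT at E18.5 (left) and 6 months (right), coloured by list, with filled points past the adjusted threshold of 0.05. Fgf10 and Wnt2 lie at −3.06 and −3.26 and Shh at 2.53 at 6 months, and Isl1 lies at 5.16 and 3.29 at E18.5 and 6 months.

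Isl1, which encodes a LIM homeodomain factor that acts with Tbx1 in the pharynx and heart field, rose where Tbx1 fell. At E18.5 it was at 2.69 ± 0.95 in WT (1 library at its lowest value), 7.14 ± 0.50 in Nkx and 7.85 ± 0.18 in Double libraries (n = 3 each). Its log2 fold change was 4.45 ± 0.48 in Nkx (limma adjusted p = 0.000232) and 5.16 ± 0.48 in Double against WT (adjusted p = 5.16e-05). At 6 months Isl1 rose by 3.29 ± 0.81 in Double against WT (adjusted p = 0.0081; 0.082 with the sex covariate). Of the 6 genes of the Tbx1 list measured at 6 months, Chrd, which encodes a BMP antagonist, also rose (1.84 ± 0.42; adjusted p = 0.00526, and 0.0593 with the sex covariate). Of that list 2 of 6 rose, against 18.4% of all genes. At E18.5, 1 of 5 rose in Nkx and 1 of 5 in Double (3.67% and 7.13% of all genes), and Smad7, an inhibitory SMAD gene, fell by 0.54 ± 0.13 in Nkx (adjusted p = 0.0278). The Smad7 call was lost in 6 of 21 alternatives, among them without WT replicate 1 (0.0979), WT replicate 2 (0.0846), Nkx replicate 1 (0.0907) or Nkx replicate 3 (0.0922).

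Retinoic acid genes pattern the regions where Tbx5 and Tbx1 are active in the embryo. Against WT at E18.5 they passed singly, 1 of 7 in Nkx and 1 of 7 in Double, where 3.67% and 7.13% of all genes rose. The receptor gene Rarb rose at E18.5 by 0.66 ± 0.18 in Nkx (limma adjusted p = 0.049, lost in 17 of 21 alternatives) and by 1.01 ± 0.18 in Double against WT (adjusted p = 0.00316, held in all 21). The Rarb call in Nkx was kept without WT replicate 3 and without Double replicate 3, and was lost on leaving out any one of the other libraries (adjusted p up to 0.203). At 6 months 1 of 10 genes of the list rose in Double against WT, where 18.4% of all genes rose: the receptor gene Rarg (0.41 ± 0.12, adjusted p = 0.0238). Rarg missed the threshold in 6 of 19 alternatives, among them without WT replicate 1 (0.0809), WT replicate 3 (0.0566), Double replicate 3 (0.0547) or Double replicate 4 (0.0514). In Double against Nkx libraries, 1 of the 10 rose (Rarg) and 2 fell (Aldh1a1, and Aldh1a2 by 2.04), where 10.2% of all genes rose and 11.5% fell. These calls of Rarg, Aldh1a1 and Aldh1a2 were lost in 3, 2 and 5 of 19 alternatives.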

How the data were processed

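RNA levels of 22 libraries were read from 1 table per library. The deposited values are on a log2 scale, and the lists of names in the submitters' processing notes hold STAR, limma and mm9, with no role or version. That the authors quantile-normalized them within each age is inferred from the values, which were nearly equal at equal rank; they were not divided by gene length. The sources used here give no counting or strand settings, and read depth is unknown. One model per age was fitted over all genes with limma 3.58.1 in R 4.3.3, with group as the factor, a mean-variance trend and Benjamini-Hochberg adjustment over all genes of each of 7 comparisons, at a threshold of 0.05; it was tested on simulated data. Symbols matched 99.2% of IDs at E18.5 and 96.2% at 6 months. Coordinates are from GENCODE M21 and RefSeq on GRCm38, not on the submitters' mm9. No coordinate was carried between builds. The alternatives were both groups alone, no trend, robust moderation, a mean of at least 5, recentring by a mean trimmed by 30%, sex and depth covariates, array weights, the replicate block and leaving out each library. The members, gene lists and tests were chosen with earlier results of these data known. Named pathway genes were those past the threshold, up to 4 by size for each list and comparison, or otherwise the pair with the highest means; neighbouring genes were named after their values were seen. Same-numbered libraries correlated, at E18.5, from −0.28 to 0.50 and, for 6 months, from −0.30 to 0.13 in their deviations from group means, so the numbers were in general not taken to pair samples. In E18.5 Nkx and Double, all 3 same-numbered pairs correlated (0.298, 0.504 and 0.18). The main fit, with group as its sole factor, left out this likeness in Double against Nkx. A fit of Nkx and Double alone, with the replicate number as a block, was added after the data were seen. Differently numbered E18.5 libraries of all groups ran from −0.51 to 0.43. Same-numbered Nkx and Double libraries also shared their sex pattern, so number and sex are not fully told apart. One gene of the Tbx1 list and 1 shared coding run are not reported here.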

Additional observations from a re-analysis of the deposited data

Results flagged for a closer look

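The mean of Tbx2 lay on opposite sides of WT at the 2 ages, and Tbx2 passed at both ages in Double only. The E18.5 Double call was lost in 7 of 21 alternatives. In Nkx libraries its log2 fold change was 2.38 at E18.5, with all 3 Nkx libraries above all WT libraries, and −0.44 at 6 months, where the groups overlapped. In Double libraries it was 1.73 at E18.5, with all 3 libraries above WT, and −2.03 at 6 months, with all 4 below WT. The difference between the ages was not tested, since the ages were normalized separately and their cells were enriched by different methods.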

How the results depend on the processing

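Of 536 recomputed values of the members, 503 kept direction and side of the threshold, 19 lost the call, 6 gained one and 8 changed sign; the causes were not tested. With both groups alone, called genes numbered 491 (E18.5 Nkx against WT), 928 (E18.5 Double against WT) and 3 (E18.5 Double against Nkx), against 1007, 2008 and 1. Array weights, whose estimation did not converge in 1 fit, gave 3788, 6396, 26 and, for NANCI against WT, 1720 against 0; at 6 months they gave 1192 against 419 for Nkx against WT. Without the trend these were 3 (NANCI) and 98 (6-month Nkx). The sex covariate gave 228 for 6-month Nkx and 3851 against 5795 for 6-month Double against WT. The replicate block, which the correlations support only for E18.5 Nkx with Double, gave 9 genes against 1 there with both groups alone, an alternative chosen after seeing the data, and changed no member call there. In the all-library fits it gave 131 for 6-month Nkx and 2285 against 3460 for Double against Nkx, and it left 1 of 2 member calls in E18.5 Nkx; Double replicate 4 was alone in its block. Called members fell from 2 to 1 with both groups alone in E18.5 Nkx and E18.5 Double and with the depth covariate in E18.5 Double, and rose from 0 to 1 in 6-month Nkx with both groups alone and with array weights.

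Leaving out each library gave 466 to 2179 called genes for E18.5 Nkx, 1182 to 2691 for E18.5 Double, 0 to 2 for NANCI and 0 to 3 for E18.5 Double against Nkx. At 6 months it gave 59 to 478 for Nkx, 4445 to 5727 for Double against WT and 2204 to 3492 for Double against Nkx. Called members ranged from 0 to 2 in E18.5 Nkx and Double, 0 to 0 in NANCI and in E18.5 Double against Nkx, 0 to 1 in 6-month Nkx, 5 to 5 in 6-month Double against WT and 4 to 5 against Nkx.

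Signs changed in the following fits, with the range over the left-out libraries. Tbx1 in E18.5 Double against Nkx ran from −0.24 to 0.11, Tbx2 in NANCI from −0.21 to 0.73, Tbx3 in NANCI from −0.86 to 0.19 (0.62 with the sex covariate) and Tbx5 in 6-month Nkx from −0.92 to 0.0392. 2610027K06Rik ran from −0.11 to 0.32 in 6-month Double against WT (−0.0145 with the replicate block) and from −0.11 to 1.81 in NANCI. Mga ran from −0.14 to 0.0417 in 6-month Double against WT, from −0.27 to 0.34 in E18.5 Double against WT, from −0.25 to 0.015 in Double against Nkx, from −0.0902 to 0.52 in NANCI and from −0.18 to 0.43 in E18.5 Nkx. The filter at a mean of 5 leaves out Tbx3 at E18.5, and it has no value there.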
